A study of Rattus norvegicus and Ovis aries with 113 samples.

Results

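The ovaries of 14 female Sprague Dawley rats were ranked by their RNA level of Cyp19a1, the gene for aromatase, which turns androgens into estrogens. The 5 highest ovaries were set beside the 5 lowest, so that 10 of 14 ovaries, among 113 libraries of the whole study, entered the comparison. Ovaries 2, 20, 24, 18 and 19 formed the highest set and ovaries 23, 27, 26, 21 and 22 the lowest set. Ovaries 29, 1, 25 and 28 lay in the middle. The high and the low level of this gene stood in for the follicular and the other states of the estrous cycle, because no source used here states a cycle stage. Since Cyp19a1 chose the sets, it is left out of the results below.

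The study sequenced RNA from nervous and reproductive tissue of rats and sheep. All ovaries came from one strain and one kind of animal: females with no genetic change or specific treatment named in the labels, killed shortly before the tissue was taken. Nothing used here states the females' age or the number of ovaries per library. Whole brains of females with the same numbers were sequenced too and are described at the end. Polyadenylated RNA of the whole ovary was read, so that in these bulk samples fewer cells of a type and less RNA per cell cannot be told apart.

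In the ovary, follicles grow under follicle-stimulating hormone. Theca cells around a follicle make androgens from cholesterol with Cyp17a1, and granulosa cells inside it turn these into estrogens with aromatase. After the surge of luteinizing hormone (LH) the follicle ruptures, and its cells become a corpus luteum, which makes progesterone from cholesterol with Star, Cyp11a1 and the Hsd3b enzymes. Rodent ovaries hold corpora lutea of several cycles beside growing follicles, so each ovary is a mixture of these structures.

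Cyp19a1 spanned a continuous range. As counts per 1000000 counts of the library (CPM), it was 85.0, 41.8, 40.5, 29.9 and 26.0 in the highest set. It was 24.7, 24.1, 18.6 and 15.6 in the middle ovaries, and 14.4, 7.08, 5.35, 3.18 and 2.44 in the lowest set. The values just inside and just outside the limits were close: 26.0 CPM in ovary 19 against 24.7 in ovary 29, and 14.4 in ovary 23 against 15.6 in ovary 28. The limits of the sets thus fell within a gradual ranking.

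**Figure D1:**
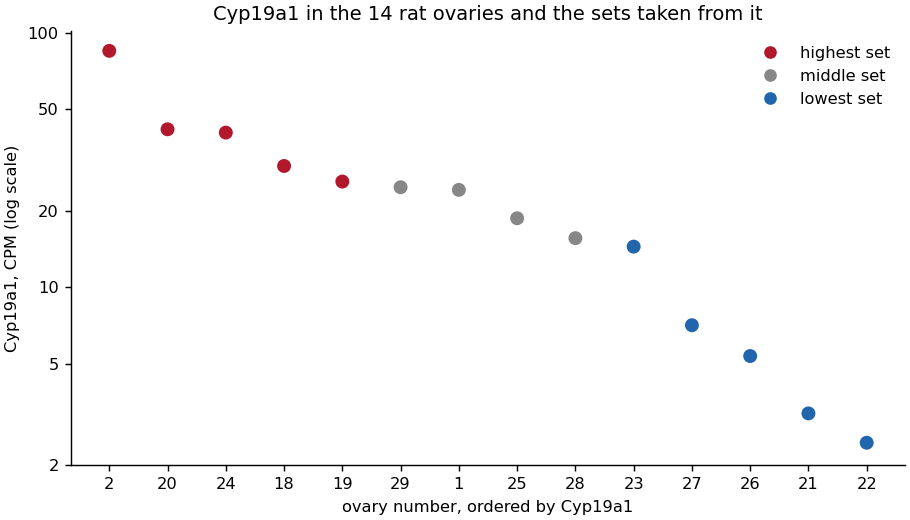
Cyp19a1 in CPM (vertical axis, log scale) in each of the 14 rat ovaries, ordered by the value that chose the sets. Each point is 1 ovary, and the colours mark the highest, middle and lowest set. The step from ovary 19 (26.0 CPM) to ovary 29 (24.7 CPM) is small.

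The ovary libraries held 50.5 to 60.3 M (1000000) counts, with 15145 to 15995 genes at 1 CPM or more and 9.17% to 16.5% of the counts in ribosomal RNA entries. The first principal component of the 14 ovaries set ovaries 18 and 26 apart from the rest. These ovaries, 1 from each set, also held the least Foxj1, the factor that drives ciliated cells, with 0.385 CPM in ovary 18 and 2.67 CPM in ovary 26 against 14.3 to 74.6 CPM in the others. The summed CPM of the 7 oviduct and cilia genes was 8.59 and 13.7 in these libraries and 36.3 to 167 in the other 12. The lowest of the other 12 were ovary 24 at 36.3 and ovary 2 at 48.9 CPM, both of the highest set. In the lowest set, the ovaries other than 26 had 94.9 to 121.8 CPM, so low sums were not balanced between the sets. Ovaries 2 and 24 also came next to ovaries 18 and 26 on the first component. Fat genes varied as widely, from a sum of 86.8 to 3343 CPM in the highest set and from 104.6 to 2634 CPM in the lowest. The median correlation of log-scale CPM was 0.958 within the highest set, 0.969 within the lowest and 0.956 between them.

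Because the ovaries were chosen by a gene of the same libraries, the differences below are a description and carry no test. A gene was described where its mean over the 10 ovaries reached 1 CPM, and a gene was said to separate the sets where all 5 values of one set lay above all 5 of the other. Of 15784 genes described, 211 were higher in the highest set without overlap (1.34%) and 278 were lower (1.76%). With a ratio of set means of at least 2 as well, 37 genes were higher (0.234%) and 53 were lower (0.336%). Without ovaries 18 and 26 these 2 numbers were 198 and 174, of which 36 and 53 were among the genes counted with all 10. Sets that stood apart with all 10 ovaries stay apart when ovaries are left out, so this sharing was nearly fixed in advance. Smaller sets also separate more easily in any gene. The median log2 ratio of all genes was 0.02.

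The mean of the 4 middle ovaries lay between the means of the sets for 36 of the 37 higher genes and 52 of the 53 lower genes. These genes were chosen for means far apart, so a mean of other ovaries can fall between them without any relation to Cyp19a1. The same share over all genes was not computed. The 4 ovaries were not alike. Among the 37 higher genes, ovaries 29 and 1 lay above all 5 ovaries of the lowest set in 35 genes each, ovary 28 in 12 and ovary 25 in 5. Among the 53 lower genes, ovary 25 lay above all 5 ovaries of the highest set in 49 genes, ovary 28 in 36, ovary 29 in 14 and ovary 1 in 10. By these genes ovaries 29 and 1 sat near the highest set. Ovary 25 sat nearer the lowest set than ovary 28 did, although its Cyp19a1 was higher.

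Steroid synthesis is taken first, since the sets were chosen by one of its enzymes. Of its 17 genes described, 3 were higher without overlap, 1 was lower, 15 had the higher mean in the highest set, and the median log2 ratio was 0.42. Without ovary 2, 12 of the 17 had the higher mean. Over all genes 1.34% were higher and 1.76% lower without overlap, the shares to set beside the counts of this list and those below. The remaining listed genes, Cyp21a1 and Sult1e1, had a mean under 1 CPM over the 10 ovaries. The genes are taken here in the order in which cholesterol passes through them.

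Uptake and entry of cholesterol into steroid synthesis did not separate the sets. Scarb1, the receptor that takes up cholesterol from high-density lipoprotein, averaged 3164 ± 1216 CPM (SD, n = 5) in the highest set and 2371 ± 949.8 in the lowest, with overlap. Star, which carries cholesterol into mitochondria, had 2317, 1033, 1571, 936 and 562 CPM in the highest set and 1378, 845, 1086, 1139.9 and 1126 CPM in the lowest. The lowest value of all 10 was in the highest set, and without ovary 2 the log2 ratio of Star went from 0.20 to -0.12. Cyp11a1, which cleaves the side chain of cholesterol, reached 5629 CPM in ovary 2 and 1965 to 3166 CPM in the other 9 ovaries. Its electron donors overlapped too, with log2 ratios of 0.25 for Fdx1 and 0.15 for Fdxr. The median of the steroid list was 0.14 without ovary 2.

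The Hsd3b enzymes, which turn pregnenolone into progesterone, were modestly higher in the highest set without overlap. Hsd3b1 (chromosome 2, 188858574 to 188864694 of GRCr8) had 8010.1, 7402, 8783, 6741 and 6477 CPM in the highest set and 4974, 6116, 6389, 3967 and 5787 CPM in the lowest. The means were 7483 ± 940.4 and 5447 ± 983 CPM (SD, n = 5), a 1.37-fold difference, and the gap between the sets was narrow, from 6389 CPM in ovary 26 to 6477 in ovary 19, and closed when the totals were adjusted by TMM. Hsd3b3 had a 1.47-fold higher mean, 2959.9 ± 264 against 2008 ± 505 CPM. Both genes overlapped with 7 ovaries a set, and Hsd3b3 also when the ovaries were ranked on TMM-adjusted CPM. The 2 genes lie 25839 bases apart, and reads of near-identical copies may have been divided between them, so their separate values are uncertain.

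Cyp17a1, which makes androgens from progestins in theca cells, differed most of the steroid genes. On chromosome 1, 255476861 to 255484547, it had 61.8, 69.6, 66.8, 116 and 53.8 CPM in the highest set. The lowest set had 1.81, 39.3, 17.7, 0.483 and 0.481 CPM. In the highest set ovary 18 stood above the other 4, while the lowest set split into ovaries 27 and 26 with intermediate values and ovaries 23, 21 and 22 with almost none. The means were 73.5 ± 24.3 and 12.0 ± 16.9 CPM (SD, n = 5), a 6.15-fold difference or 2.62 on the log2 scale. Without ovary 27 the log2 ratio was 3.84. Middle ovaries ran from 92.2 CPM in ovary 29 and 144 in ovary 1 to 1.68 in ovary 25 and 29.0 in ovary 28, so the highest value of the 14 was in neither set.

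Srd5a1, a reductase that converts androgens and progestins to their dihydro forms, was lower in the highest set. It had 8.81, 12.7, 13.1, 43.7 and 14.9 CPM there and 136, 65.5, 49.6, 105 and 117 CPM in the lowest set. Ovary 18 came close to the lowest set, and the other 4 ovaries of its set had at most 14.9 CPM. The mean was 5.07-fold lower, 18.7 ± 14.2 against 94.7 ± 36.0 CPM (SD, n = 5), a log2 ratio of -2.34, which was -3.10 without ovaries 18 and 26. In the middle ovaries Srd5a1 mirrored Cyp17a1, with 11.7 and 22.8 CPM in ovaries 29 and 1 and 101 and 37.5 CPM in ovaries 25 and 28.

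Of the enzymes that interconvert estradiol and estrone, 3 were measured. Hsd17b1, which makes estradiol in granulosa cells, overlapped, with 88.2 to 347 CPM in the highest set and 30.1 to 221 CPM in the lowest. Hsd17b7, its luteal counterpart, overlapped too, and its log2 ratio of 0.57 was 0.01 without ovary 2. Hsd17b2, which works in the inactivating direction, was looked up after its values were seen. It was low everywhere, at 0.879, 2.29, 1.20, 0.752 and 0.911 CPM in the highest set and 3.26, 3.24, 3.70, 2.81 and 3.02 CPM in the lowest. Its mean was 2.66-fold lower in the highest set, and the values did not overlap. Akr1c3, the symbol under which the table holds the enzyme that inactivates progesterone, averaged 2653 ± 1757 against 1293 ± 597 CPM (SD, n = 5) with overlap. Por, which feeds electrons to the cytochrome P450 enzymes, was level, with a ratio of 1.00.

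**Figure D2:**
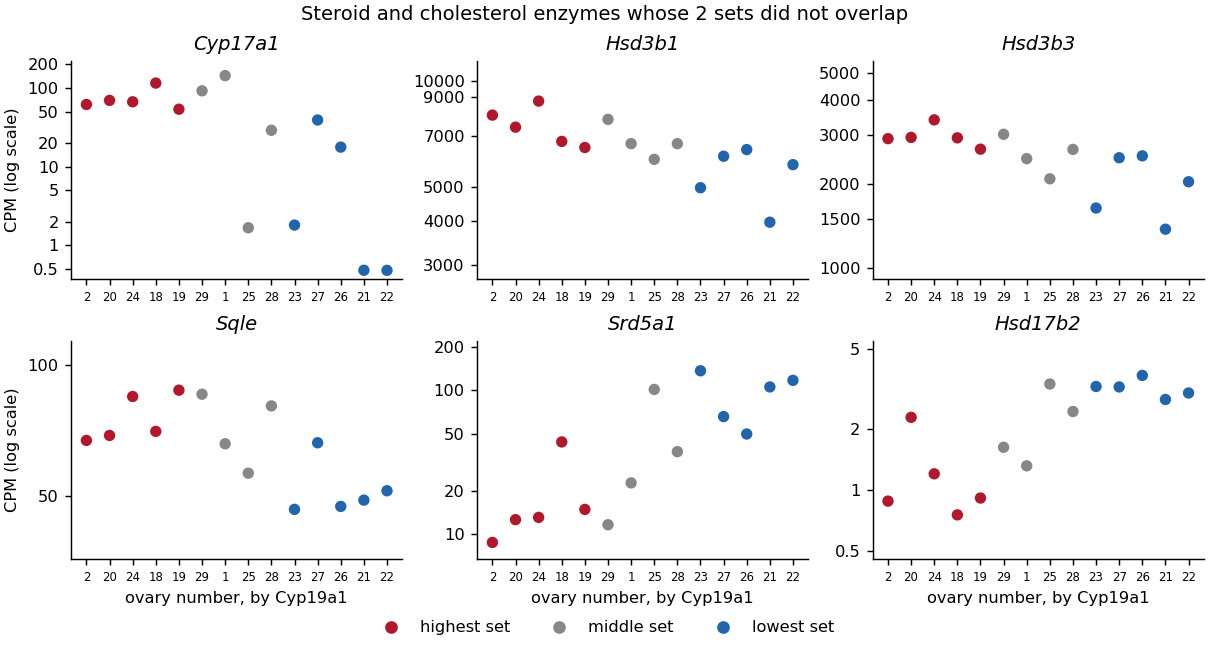
CPM (vertical axes, log scales) of 6 steroid and cholesterol enzymes that separated the sets, in each ovary ordered by Cyp19a1. Each point is 1 ovary. Cyp17a1, Hsd3b1, Hsd3b3 and Sqle are lower and Srd5a1 and Hsd17b2 higher in the 5 ovaries at the right of each panel.

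Among regulators, the nuclear receptor Nr5a1, which switches on many steroid genes, averaged 218 ± 45.8 against 150.0 ± 26.9 CPM (SD, n = 5) with overlap. Its relative Nr5a2 had a log2 ratio of 0.03 and the repressor Nr0b1 one of 0.15. None of these 3 regulators separated the sets.

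Cholesterol synthesis, which supplies the substrate, had 20 genes described, of which 2 were higher without overlap and none lower, with a median log2 ratio of 0.20. Sqle, an early step of the sterol branch, had 67.1, 68.8, 84.6, 70.3 and 87.5 CPM in the highest set and 46.5, 66.2, 47.3, 48.9 and 51.4 CPM in the lowest. Its mean was 1.45-fold higher, with a narrow gap from 66.2 CPM in ovary 27 to 67.1 in ovary 2 that closed under TMM-adjusted totals. Without ovaries 18 and 26 the list median was 0.06. Stard4, a carrier of cholesterol between membranes, averaged 47.7 ± 6.82 against 31.4 ± 9.76 CPM (SD, n = 5) with overlap.

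Granulosa and follicle growth genes had the higher mean in the highest set in 19 of 25, with a median log2 ratio of 0.29 that was 0.14 without ovary 18, but a single gene separated the sets. That gene was Greb1, known as an estrogen-induced gene, on chromosome 6 at 45169289 to 45321973. It had 318, 313, 267, 289.6 and 249 CPM in the highest set and 147, 152, 199.6, 87.0 and 96.1 CPM in the lowest, a 2.11-fold difference. In the middle, ovaries 29 and 1 had 279 and 306 CPM and ovaries 25 and 28 had 151 and 196 CPM, so Greb1 divided the middle ovaries into 2 pairs.

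Inhba, the activin and inhibin beta A subunit made by large follicles, came next. It had 747, 1209, 601, 1186 and 750.1 CPM in the highest set and 611, 412, 427, 219 and 286 CPM in the lowest. The sets overlapped because ovary 23 with 611 CPM exceeded ovary 24 with 601 CPM, and the mean was 2.30-fold higher. Its partner subunits differed less, with log2 ratios of 0.40 for Inha and 0.43 for Inhbb. Amh, the hormone of small growing follicles, averaged 139.5 ± 18.9 against 73.6 ± 38.0 CPM (SD, n = 5), with overlap by ovary 26 at 130.2 CPM. The receptor Fshr overlapped fully, at 6.75 to 15.8 against 2.00 to 13.9 CPM. Wnt4, a signal of ovarian somatic cells, went the other way with 27.7 ± 12.5 against 54.6 ± 15.5 CPM (SD, n = 5), and overlapped through ovary 18 at 48.6 CPM. Igf1, a growth factor of follicles, was also lower, at 175 ± 40.9 against 276 ± 43.1 CPM (SD, n = 5) with overlap.

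The list of genes induced by the LH surge had 17 genes described, none of which separated the sets in either direction, and a median log2 ratio of -0.12 that was 0.04 without ovary 21. Markers of the hours around ovulation were low throughout: Pgr, the progesterone receptor, was 1.18 to 5.07 CPM in the highest set and 1.03 to 3.47 CPM in the lowest, and Ptgs2, the prostaglandin synthase of ovulation, was 1.21 to 8.39 and 1.32 to 6.58 CPM. The epidermal growth factor family members Areg, Ereg and Btc had means under 1 CPM over the 10 ovaries, with at most 2.89, 2.73 and 0.858 CPM in one of them. Tnfaip6, which stabilises the matrix of the expanding cumulus, was uneven in the highest set, at 5.31, 40.9, 22.9, 5.16 and 28.1 CPM. Edn2, an endothelin made briefly at rupture, was high in ovary 19 alone of its set, at 21.2 CPM against 0.0996 to 1.77, and in ovaries 23, 21 and 22 of the lowest set at 12.3, 8.71 and 11.0 CPM. Without ovary 19 the log2 ratio of Edn2 went from -0.45 to -3.28.

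Luteal genes pointed in opposite directions within the list. Of 14 described, Hsd3b1 alone separated the sets, and not under TMM-adjusted totals. The median log2 ratio was 0.44, and 0.19 without ovary 2. The LH receptor Lhcgr had 1005, 594, 257, 479.9 and 670.2 CPM in the highest set and 121, 506, 436, 36.3 and 110.3 CPM in the lowest. The prostaglandin receptor Ptgfr, which receives the signal for luteal regression, averaged 671 ± 411 against 269 ± 90.3 CPM (SD, n = 5), and the prolactin receptor Prlr 79.7 ± 25.9 against 47.2 ± 23.4 CPM. Both overlapped, as Lhcgr did. Rln1, the hormone relaxin, was lower in the highest set with 258, 20.2, 32.8, 6.40 and 53.1 CPM against 246, 34.4, 161, 627 and 789 CPM. Its overlap came from ovary 2 on one side and ovary 27 on the other, and its log2 ratio of -2.33 was -3.72 without ovary 2. Parm1 and Timp1 of the same list were lower as well, at log2 ratios of -0.93 and -1.31, with overlap.

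Theca and interstitial genes other than Cyp17a1 did not separate the sets, and the median of the 13 described was 0.33, or 0.18 without ovary 19. The hedgehog receptor and target Ptch1 averaged 54.0 ± 13.4 against 36.3 ± 8.14 CPM (SD, n = 5) with overlap. Insl3, a theca hormone, was 1.48 to 3.60 against 1.54 to 4.04 CPM, and Enpep, an interstitial peptidase, had a log2 ratio of 0.39. Aldh1a1, a retinoic acid enzyme, took 2 levels within the lowest set, 208 and 219 CPM in ovaries 27 and 26 against 35.3 to 57.9 CPM in ovaries 23, 21 and 22, the same division as in Cyp17a1.

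Oocyte genes had the higher mean in the highest set in 12 of 12 described, with a median log2 ratio of 0.48, but this rested on ovary 18. Without it 8 of 12 had the higher mean and the median was 0.03. Kit, the receptor for the granulosa ligand Kitlg, is in this list but also stands on theca and interstitial cells. It separated the sets, at 30.5, 44.6, 26.1, 27.4 and 34.5 against 13.5, 20.4, 23.4, 14.2 and 14.7 CPM, a 1.89-fold difference. The oocyte-restricted genes overlapped: the zona protein gene Zp2 was 15.9 to 51.2 CPM against 11.7 to 30.3, Padi6 of the cytoplasmic lattices 17.5 to 63.7 against 16.5 to 37.0, and the growth factor Gdf9 9.37 to 29.3 against 5.35 to 15.0. The highest value of each was in ovary 18, without which their log2 ratios were 0.10 for Zp2, 0.03 for Padi6 and -0.02 for Gdf9. Cell cycle genes had 24 described with none separating the sets and a median log2 ratio of -0.08, which was -0.23 without ovary 18 and 0.03 without ovary 24. Mki67, a proliferation marker, averaged 36.9 ± 16.1 against 35.9 ± 9.46 CPM (SD, n = 5).

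Genes of the extracellular matrix and its proteases were mostly lower in the highest set, with the lower mean in 13 of 16 and a median log2 ratio of -0.41. Mmp2, a gelatinase of stroma, separated the sets at 91.9, 93.0, 131, 165 and 67.1 against 373, 188, 188, 282 and 238 CPM, a 2.32-fold lower mean. Mmp13, a collagenase, went the other way and had the largest ratio of this list. It had 55.4, 182, 135, 5.65 and 155 CPM in the highest set and 9.61, 6.72, 11.5, 2.63 and 3.85 CPM in the lowest. Only ovary 18 overlapped with the lowest set, and the means, 107 ± 73.5 and 6.87 ± 3.76 CPM (SD, n = 5), differed 15.5-fold. Plat, an activator of plasminogen, was lower in the highest set with overlap, at a log2 ratio of -0.82. Without ovaries 18 and 26 the list median was -0.59, and without ovary 27 it was -0.28.

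**Figure D3:**
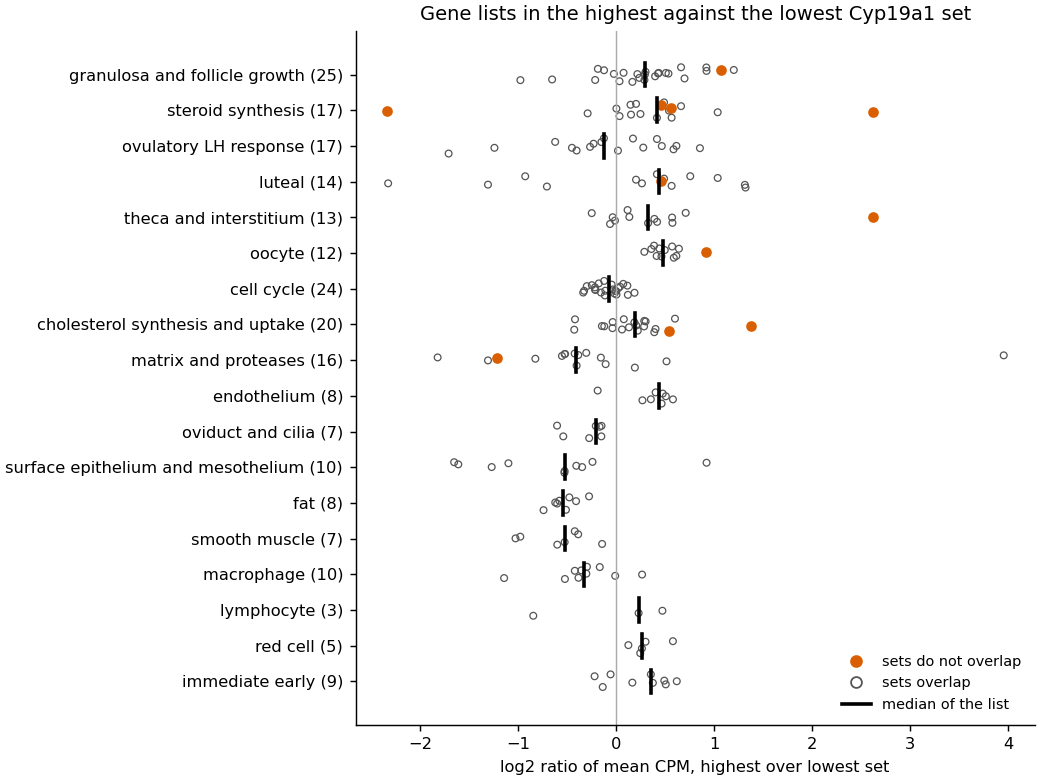
Log2 ratio of mean CPM, highest over lowest set (horizontal axis), for each described gene of the named lists, whose numbers of genes stand in brackets. Filled points are genes whose sets do not overlap, open points genes whose sets overlap, and bars mark list medians. Most genes of every list overlap, with Cyp17a1 at 2.62 and Srd5a1 at -2.34 among the farthest filled points.

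Markers of other cells in or around the ovary were given by their summed level, and their part in the results was not tested. Endothelial genes had the higher mean in 7 of 8, with sums of 419 to 951.7 CPM in the highest set and 396 to 564 CPM in the lowest, and their median log2 ratio of 0.43 was 0.25 without ovary 2. Surface epithelium and mesothelium genes had the lower mean in 9 of 10, at sums of 242 to 593 and 287 to 853.6 CPM, with Msln at 30.6 ± 20.6 against 96.3 ± 53.6 CPM (SD, n = 5). The exception was Cdh1, 75.4 ± 33.8 against 39.8 ± 6.20 CPM. Macrophage genes had the lower mean in 9 of 10, with sums of 399.6 to 649 and 478 to 914 CPM, but without ovaries 18 and 26 4 of 10 had the higher mean. Smooth muscle genes had the lower mean in 7 of 7, fat genes in 8 of 8, and oviduct and cilia genes in 7 of 7. These directions rested on single ovaries: 3 of 7 smooth muscle genes and 4 of 8 fat genes had the higher mean without ovary 21, and 4 of 7 oviduct and cilia genes without ovary 18. No gene of these 6 lists separated the sets. Of the HOX genes that mark uterus, Hoxa10 alone reached a mean of 1 CPM, and the sum of the 4 genes was 1.38 to 12.9 CPM in the highest set and 0.641 to 2.93 in the lowest.

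The genes with the largest ratios of means among those that separated the sets, without placeholder symbols and at 10 CPM or more in the higher set, were taken as 12 per direction, of which 11 higher and 12 lower genes are shown. All 23 kept the sets apart under TMM-adjusted totals and totals without ribosomal RNA. These settings changed the values little, with TMM factors of 0.960 to 1.06 and ribosomal RNA shares of 9.17% to 13.2% in the 10 ovaries. For genes picked by the largest ratios they were therefore a weak check. Leaving out 1 of the 10 ovaries cannot make separate sets overlap, so that setting was no check on these genes. With 7 ovaries a set 15 of the 23 kept the sets apart, and Srd5a1 and Serpina3n were among those that then overlapped. Serpina3n also overlapped when the ovaries were ranked on TMM-adjusted CPM. Higher in the highest set, after Cyp17a1, came Myh6, the alpha heavy chain of cardiac myosin, on chromosome 15 at 32388102 to 32413663. It had 39.2, 35.1, 36.1, 25.9 and 20.2 CPM against 1.63, 6.93, 16.7, 0.912 and 3.20 CPM, a 5.32-fold difference, and its log2 ratio of 2.41 was 3.37 without ovaries 18 and 26. As with Cyp17a1, ovaries 27 and 26 were the highest of the lowest set, and the middle ovaries 29 and 1 exceeded every other ovary at 48.4 and 60.6 CPM. Its neighbour Myh7, looked up after its values were seen, lies 2861 bases away and was 4.60-fold higher at lower levels. Reads shared between these similar genes cannot be told apart here.

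The transporter Slc51a, one subunit of a steroid and bile acid exporter, was 4.10-fold higher, at 224, 263, 363, 100.4 and 102 against 32.7, 73.7, 81.5, 33.2 and 36.0 CPM. Chrnb4, a subunit of neuronal acetylcholine receptors on chromosome 8 at 64312644 to 64333319, was 3.21-fold higher at 95.7, 83.6, 131, 58.3 and 81.0 against 19.9, 51.5, 42.6, 9.46 and 16.7 CPM. Both Myh6 and Chrnb4 are usually described in other organs, the heart and neurons. The partner subunit Chrna3, 1392 bases away and added after its values were seen, was at 0.578 to 3.55 CPM and 0.275 to 0.575 CPM, without overlap by a margin of 0.578 in ovary 18 against 0.575 in ovary 26.

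The rest of the higher genes had varied known roles. Hbegf, a ligand of the epidermal growth factor receptor, averaged 30.5 ± 13.2 against 9.94 ± 2.81 CPM (SD, n = 5), with 14.5 CPM in ovary 18 close to 14.2 in ovary 26. Ddit4l, an inhibitor of growth signalling through mTOR, averaged 50.9 ± 11.1 against 18.5 ± 7.88 CPM, and Tiparp, a target of the aryl hydrocarbon receptor, 105 ± 41.0 against 42.7 ± 3.03 CPM. The lowest set was narrow for Tiparp, at 39.2 to 46.8 CPM. Also higher were Dmkn, a secreted epithelial protein, 3.17-fold, the glucuronosyltransferase Ugt2b34l1 4.40-fold, the aldo-keto reductase Akr1c12l1 2.92-fold and Bpifc 3.32-fold.

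Lower in the highest set, Serpina3n led by size. This secreted protease inhibitor, on chromosome 6 at 129088392 to 129095950, had 1.63, 1.56, 2.59, 0.964 and 1.19 CPM in the highest set and 2.73, 36.5, 14.3, 243 and 50.1 CPM in the lowest. Ovary 23 stood only just above the highest set, whereas ovary 21 reached 243 CPM. The mean was 43.7-fold lower, a log2 ratio of -5.45 that was -4.03 without ovary 21. Middle ovaries had 3.94, 3.53, 7.04 and 10.8 CPM, all above the highest set. Fgg, the fibrinogen gamma chain, was 11.3-fold lower, at 0.443 to 1.70 against 2.11 to 25.0 CPM.

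Ptprn, a protein of dense-core secretory vesicles, had 6.97, 14.0, 5.34, 17.9 and 6.97 CPM in the highest set and 207, 20.8, 25.2, 174 and 123 CPM in the lowest. Its mean was 10.7-fold lower, with ovaries 27 and 26 just above the highest set and the other 3 far above it. Calb2, the calcium-binding protein calretinin, had 63.2 to 145 CPM against 231 to 501 CPM. Prph, an intermediate filament protein of peripheral neurons, had 5.47 to 10.9 against 16.4 to 38.7 CPM, and Gas7 42.9 to 55.6 against 82.3 to 212 CPM. In Calb2 and Gas7 the sets stood well apart, and in Prph ovary 26 was the nearest.

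Several lower genes encode enzymes that reduce carbonyl compounds, while Akr1c12l1 of the same kind was higher. Akr1b8, an aldo-keto reductase, was even in the lowest set, at 114, 108, 109.7, 117 and 106 CPM, and uneven in the highest, at 25.1, 21.7, 8.47, 83.3 and 20.1 CPM. The value of 83.3 CPM was that of ovary 18, and the mean was 3.49-fold lower. Its neighbour Akr1b10, added after its values were seen, was 2.06-fold lower. The carbonyl reductases Cbr1l1 and Cbr1l2 were each 3.31-fold lower and Cbr1, also added afterwards, 2.54-fold. These 3 genes lie within a short stretch of chromosome 11, are near copies, and had nearly parallel values, from 118 to 176 CPM against 191 to 846 CPM in Cbr1l1, so they are not 3 separate observations. The fructose transporter Slc2a5, 4.01-fold lower, and the lubricating protein gene Prg4, 4.37-fold lower, complete this direction with Srd5a1.

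**Figure D4:**
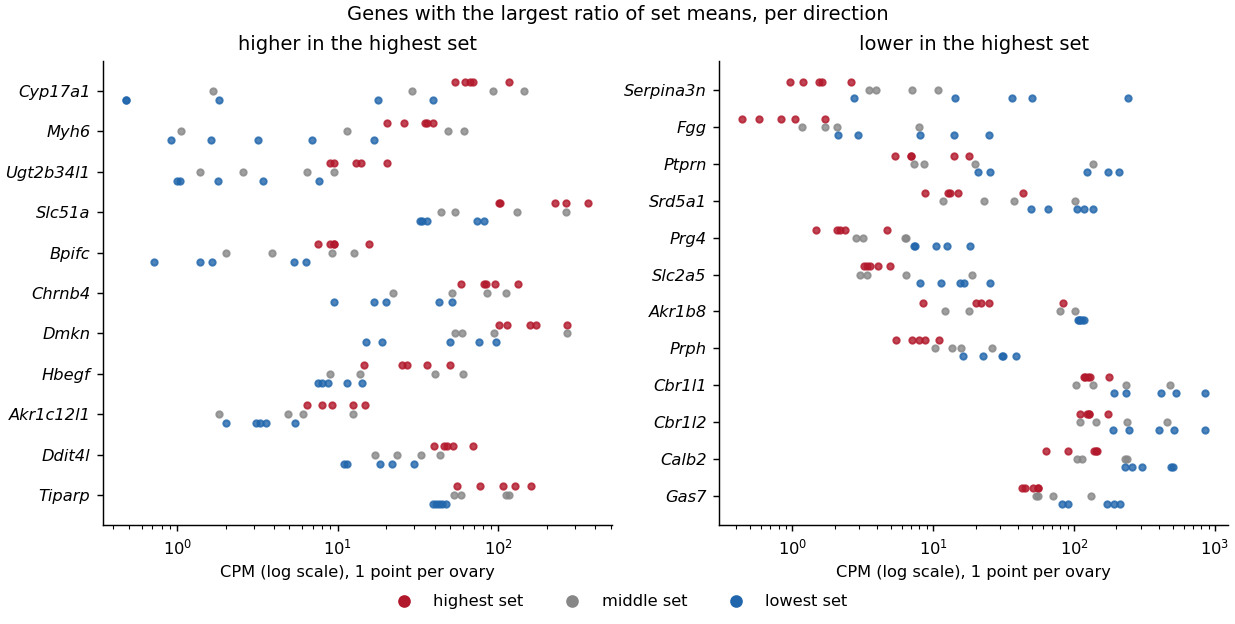
CPM (horizontal axes, log scales) of the genes with the largest ratio of set means, 11 higher and 12 lower, 1 point per ovary and coloured by set. The red and blue points do not mix in any row. The grey middle ovaries are spread over both, as in Cyp17a1 from 1.68 to 144 CPM.

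The lowest set was not uniform. Of the 53 genes lower in the highest set, the highest value of the lowest set was in ovary 21 in 20 genes, ovary 23 in 17 and ovary 22 in 11, against 3 for ovary 27 and 2 for ovary 26. Several genes repeated that division at a larger scale. Runx1, a transcription factor induced by LH, had 113, 61.4 and 62.7 CPM in ovaries 23, 21 and 22, but 15.2 and 20.8 CPM in ovaries 27 and 26, within the 13.5 to 21.3 CPM of the highest set. Penk, the enkephalin precursor, had 63.3, 71.7 and 55.9 CPM in these 3 ovaries and 10.5 and 14.2 CPM in ovaries 27 and 26, against 4.96 to 12.4 CPM in the highest set. Timp1, an inhibitor of matrix proteases, had 344, 396 and 392 CPM there and 149 and 112 CPM in ovaries 27 and 26.

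Ovary 25 of the middle shared the high values of these genes. It had 72.8 CPM of Runx1, 52.2 of Penk, 336 of Timp1, 489 of Rln1 and 136 of Ptprn, where the other 3 middle ovaries had at most 17.6, 12.8, 132, 22.6 and 19.7 CPM. Its 18.6 CPM of Cyp19a1 was above the 7.08 and 5.35 CPM of ovaries 27 and 26, so the order by Cyp19a1 was not the order by these genes. Sult1e1, an estrogen sulfotransferase, had 4.43, 2.75 and 2.08 CPM in ovaries 23, 21 and 22, 4.94 in ovary 25 and at most 0.158 in the other 10. These genes were picked from the ovaries' values and carry no test.

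**Figure D5:**
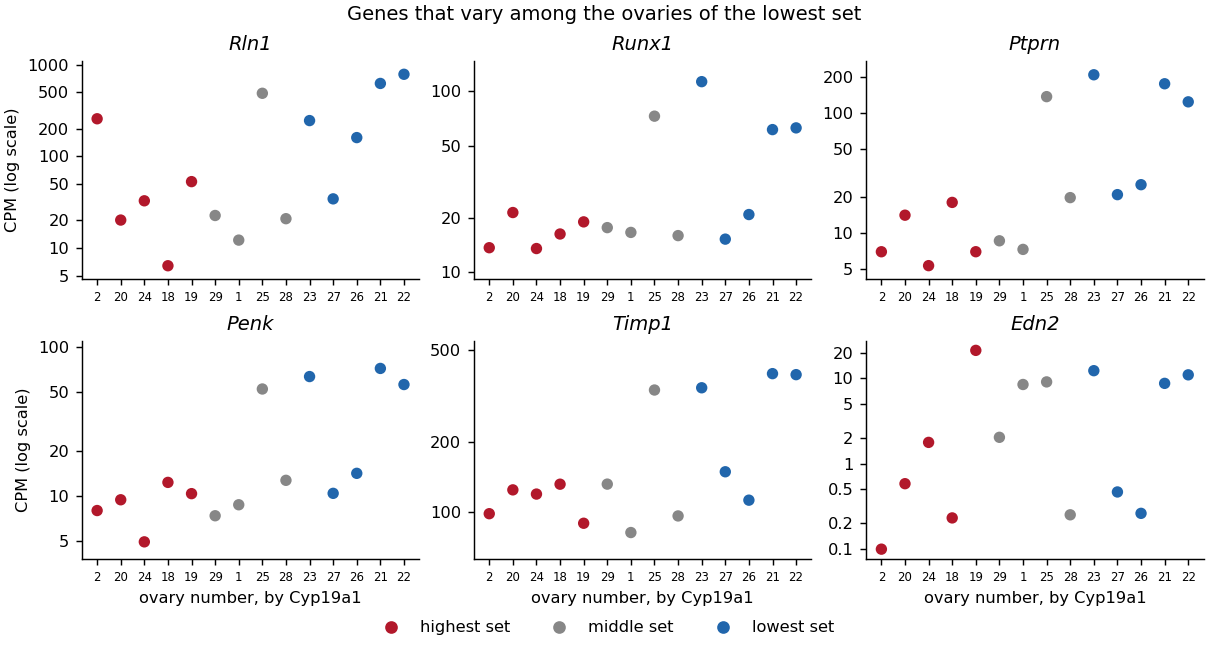
CPM (vertical axes, log scales) of 6 genes that vary within the lowest set, in each ovary ordered by Cyp19a1, 1 point per ovary. Ovaries 23, 21 and 22 and the middle ovary 25 are high together in Runx1, Ptprn, Penk and Timp1, and ovaries 27 and 26 lie near the highest set there.

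Over all 14 ovaries, genes were also ranked by Spearman's rho against Cyp19a1, as a description with n = 14. The points share the library whose total scales both values. The highest rho among genes with a mean of at least 10 CPM were 0.916 for Armc8, a subunit of a ubiquitin ligase, 0.912 for Ddit4l and for the transcription factor Foxk2, 0.899 for the chromatin remodeller Baz1a and for Mfsd14a, and 0.886 for the acyltransferase Agpat5. Their changes were small apart from Ddit4l, with Armc8 at 27.7 ± 2.58 against 24.0 ± 0.350 CPM (SD, n = 5). The lowest were -0.934 for the splicing factor Isy1, -0.921 for Rps10l6, -0.903 for Rps3, and -0.895 for Cuedc2, Rps2 and Rps2-ps17. Of these 6, 4 were ribosomal protein genes or copies of them, and Rps2 averaged 1200.1 ± 155 against 1830.1 ± 237 CPM. Over TMM-adjusted totals and the leaving out of each ovary, the absolute rho of these 12 genes ran from 0.780 to 0.951, and their order changed. The 12 were picked as the extremes of rho in the same ovaries, so large values in these settings were nearly fixed in advance. Greb1 had 0.864, Hsd3b1 0.846, Cyp17a1 0.745 and Srd5a1 -0.833. These 4 genes were named for separating sets ranked by the same Cyp19a1 values, so a large rho follows from that choice.

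The brains of females with the same numbers were compared to ask whether the ranking by the ovary was visible there. The labels do not state that an equal number means the same animal. Over 10 genes whose levels fall into separate groups in both tissues, the correlation between the ovary and the brain of the same number had a median of 0.621, and 12 of 14 were above 0.1, against -0.016 for unequal numbers, although only 6 of 14 correlated best with their own number. Over 10302 genes at 5 CPM in both tissues the median was 0.026, with 5 of 14 above 0.1, against 0.0027 for unequal numbers. What this second measure would be for tissues of the same animal is not known, so it cannot decide the question. Without a statement in the labels, the pairing of numbers stays uncertain. The 10 brains held 45.2 to 93.2 M counts, of which 3.63% to 59.6% were ribosomal RNA. Brain and ovary are different libraries, so a test was possible here. Of 20255 genes tested, 0 were called at an adjusted p below 0.05 by edgeR's quasi-likelihood test (0%), and 757 (3.74%) had an unadjusted p below 0.05. Without the low-count filter, DESeq2 called 13 of 31735 genes and edgeR 0. With the filter, limma voom called 0. With 7 brains a set edgeR called 0. In that fit 6.86% of genes had an unadjusted p below 0.05, and the smallest adjusted p by edgeR was 0.064. With the log2 of ovarian Cyp19a1 as a continuous term over all 14 brains, edgeR called 0 genes. This fit and the fit with 7 brains a set both included brain 1. Of the counts of brain 1, 94.8% were ribosomal RNA, and 8679 genes reached 1 CPM in it. Neither fit was repeated without brain 1, so its effect on their results was not tested.

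The brain genes with the smallest p were Col16a1, a collagen, higher in rats of the highest set, and LOC134483375 lower. Col16a1 had 24.8 to 37.5 TMM-scaled CPM against 18.0 to 21.0, without overlap, a log2 difference of 0.60 ± 0.11 (SE), and its adjusted p by edgeR was 0.991. Of the 18 steroid-responsive and neuroendocrine genes tested, 0 were called. The estrogen receptor gene Esr1 had a log2 difference of -0.43 with an adjusted p of 0.991 by edgeR. Among genes that separated the ovaries, Greb1 differed in brain by 0.12 ± 0.22 (SE) and Srd5a1 by 0.06 ± 0.14 on the log2 scale, and the adjusted p of each by edgeR was 0.991.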

How the data were processed

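RNA of 14 rat ovaries and of 14 female rat brains was analysed. Per the labels, RNA was extracted with a Zymo Quick-RNA kit and DNase I and made into stranded mRNA libraries with a Watchmaker kit, read on a NovaSeq X Plus from both ends for 150 bases. Per the submitters' processing notes, the tools were Trimmomatic 0.39, STAR 2.7.5a, Rsubread 2.20.0 and R 4.4.2, with the GRCr8 build. Raw counts of reads per gene were deposited, 1 column a library. Whether counting used strand, and how reads matching more than 1 gene were treated, is not given in the sources used here, so overlapping genes and near-identical copies are uncertain. No sequence is printed, since gene counts do not bear on one. Positions are from RefSeq, to which 38599 of 38675 symbols matched.

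CPM were computed on plain library totals of 50.5 to 60.3 M counts (Python 3.11.15, pandas 2.3.3). The 5 ovaries with the highest and the 5 with the lowest Cyp19a1 were compared without a test. For brain counts the quasi-likelihood test of edgeR 4.0.16 (R 4.3.3) was used, with TMM factors and Benjamini-Hochberg adjustment, which was tested on simulated data. limma 3.58.1 and DESeq2 1.42.0 were alternatives. Named genes were those of the lists, the 12 largest ratios per direction without overlap at 10 CPM or more, the 6 highest and 6 lowest rho, and the 5 smallest p per direction in brain. The members, lists and rules were chosen with earlier results of these data known. Of the oocyte and oviduct lists, Oosp1 and Ovgp1 matched no symbol. Some genes that these rules name are not reported here.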

Additional observations from a re-analysis of the deposited data

Results flagged for a closer look

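Single ovaries lay far from the rest of their set in 31 groups, out of 326 groups of ovary or brain values examined. The rate of about 1 in 20 groups marked by chance holds for independent, normally distributed values. These CPM were neither independent nor checked for normality, so no excess over chance is read from this number. Ovary 18 accounted for 9 of the 31 groups, ovary 2 for 6, ovary 25 for 5 and ovary 24 for 4.

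In ovary 18 the values far above the rest of the highest set were 116 CPM of Cyp17a1, 43.7 of Srd5a1, 3.60 of Insl3, 29.3 of Gdf9, 3082 of Col1a1, 83.3 of Akr1b8, 176 of Cbr1l1, 173 of Cbr1l2 and 21.7 of Cuedc2. For Srd5a1, Akr1b8, Cbr1l1, Cbr1l2 and Cuedc2 this brought ovary 18 toward the lowest set, and for Cyp17a1 away from it. Ovary 2, the highest in Cyp19a1, stood above its set with 5629 CPM of the side chain cleavage enzyme Cyp11a1, 126 of Prlr, 258 of Rln1, 15.7 of Bpifc and 32.1 of Armc8, and below it with 40.4 CPM of Isy1. Ovary 24 stood above with 209 CPM of Tspo, 76.1 of Enpep, 4.73 of Prg4 and 589 of the fat gene Adipoq, and ovary 19 with 21.2 CPM of Edn2 and 268 of Plat.

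Among the middle ovaries, ovary 25 was high with 72.8 CPM of Runx1, 489 of Rln1, 7.89 of Fgg, 136 of Ptprn and 52.2 of Penk. Ovary 28 had 183 CPM of Ihh, the hedgehog ligand of granulosa cells, and ovary 29 had 8.60 CPM of Pgr. In the lowest set, ovary 21 was high with 243 CPM of Serpina3n, ovary 27 with 66.2 of Sqle, and ovary 26 was low with 2.67 of Foxj1.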

How the results depend on the processing

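The numbers of genes that separate the sets with a ratio of at least 2 were 37 higher and 53 lower. Without a filter on low values they were 96 and 87, at a mean of at least 10 CPM 18 and 29, and with a ratio of at least 1.5 they were 64 and 121. With 7 ovaries a set 25 were higher and 25 lower, and with 4 a set 40 and 71. Leaving out 1 ovary gave 36 to 109 higher, the most without ovary 18 (109) and ovary 26 (104), and 50 to 127 lower, the most without ovary 26 (127), ovary 18 (109) and ovary 27 (104). Without both ovaries 18 and 26, an alternative chosen after seeing the data, they were 198 and 174. Sets of fewer ovaries separate more easily, so these counts are not like for like. TMM scaling gave 41 and 53, and totals without the 159 ribosomal RNA entries, since the table held no mitochondrial genes to remove, gave 48 and 52. Ranking Cyp19a1 on TMM-adjusted CPM moved 2 ovaries to another set and gave 36 and 53. Of 102 named genes, 1 changed sign under TMM, 1 under totals without ribosomal RNA and 4 without ovaries 18 and 26. Rank correlations moved by more than their leave-one-out spread in 7 of 12 genes under TMM. In brain, DESeq2 called 13 genes against 0 by edgeR, and leaving out 1 brain gave 0 to 1, the 1 without brain 23. No paired analysis was possible because the highest and lowest sets are different animals and share no number. At 50.5 to 60.3 M counts an ovary, a gap as small as that of Chrna3, 0.578 against 0.575 CPM, is within counting error.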

Other observations

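Ribosomal protein genes, listed after their values were seen, tended to be lower in the highest set. Of 128 described, 94 had the lower mean, 10 were lower without overlap and 0 higher, with a median log2 ratio of -0.10 and a median rho against Cyp19a1 of -0.33, against 0.011 over all genes. The median depended on ovary 2, in which these genes held 4.30% of the counts, and was -0.00065 without it. Over all genes 1.76% were lower and 1.34% higher without overlap. Without ovary 23, 18 ribosomal protein genes were lower without overlap. A smaller set separates more easily, and over all genes the number lower without overlap rose from 278 to 358 in that setting.

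Immediate early genes, which respond to handling and to hormones within minutes, had the higher mean in the highest set in 6 of 9, with a median log2 ratio of 0.35, or 0.06 without ovary 19, and sums of 282 to 575.9 against 300.01 to 497 CPM. Red cell genes had the higher mean in 5 of 5, at sums of 1668 to 7054 against 1749.7 to 3681 CPM, and in 0 of 5 without ovary 24. Of 6 lymphocyte genes, 3 were described, and 2 of these had the higher mean in the highest set. Their median log2 ratio was 0.23, or -0.04 without ovary 2. The sums over all 6 lymphocyte genes were 21.3 to 45.9 against 30.6 to 62.4 CPM. None of these genes separated the sets.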
